A study of Mus musculus with 3 samples.

Results

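The regions described here are the promoters that pairs of divergently transcribed genes share in mouse liver. A pair was 2 protein-coding genes on opposite strands whose annotated starts faced away from each other and lay at most 1 kb apart, and its region was the span between the starts plus 500 bp on either side. This rule gave 808 pairs from 1599 genes, of 22367 protein-coding starts outside the mitochondrial chromosome (GENCODE release M1, NCBI37/mm9). The rule used the annotation alone and no binding value. The starts of a pair lay 141 bp apart at the median, with quartiles of 73 and 271 bp, and 34 pairs shared a gene with another pair. For comparison there were 19653 single promoters, which are starts with no other protein-coding start within 1 kb on either strand, each with 500 bp on either side.

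The study measured where the retinoid receptors sit in chromatin by chromatin immunoprecipitation and sequencing (ChIP-seq). All 3 libraries came from livers of male wild type C57BL/6 mice, 3 months old by the sample labels, with no agent and no altered allele in any of them. They were 1 RXRα ChIP library, 1 RARα ChIP library and 1 input library of chromatin that was not precipitated. Each antibody therefore had 1 library, no value here has a replicate check, and no test was made. The number of mice per library is not given in the labels. Ranges in parentheses are 95% Wilson intervals, which take promoters as independent and describe counting error alone.

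A bidirectional promoter drives transcription from both of its ends, and the DNA between the starts is shared by the genes on its sides. Such promoters are known to be rich in CpG dinucleotides and poor in TATA boxes, and many of their genes serve tasks that every cell needs, such as mitochondrial function, DNA repair and the processing of RNA. The retinoic acid receptor RARα binds DNA mainly as a heterodimer with the retinoid X receptor RXRα, which is also the partner of PPARα, FXR, LXR and PXR in liver. One kind of DNA element of such dimers is a direct repeat of the hexamer AGGTCA or a close variant, with 1 to 5 bases between the copies. Only direct repeats were searched here, and not inverted or everted ones.

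RARα was given as a list of peaks with a score, and a pair was called when the summit of a peak with a score above 20 lay in its region. RXRα was called from signal tracks in bins of 32 bp, with a total of 9.9999 M RXRα reads and 9.9993 M input reads. A bin counted as bound when its RXRα signal reached 20 times the local input, or 20 times the genome mean of 0.603 input reads if the local input was lower. Bound bins within 200 bp were joined into an RXRα region. Where no input read was present, 13 RXRα reads were needed, and each read covered 160 bp, which limits how finely RXRα can be placed. RXRα enrichment is the mean RXRα signal of a promoter region over its mean input signal, with the genome mean as the lowest input allowed. As a check of the tissue, 10 hepatocyte genes, among them Alb and Apoa1, were looked up within 10 kb of the start. All 10 had an RXRα region and a RARα peak, compared to 1 of 8 genes of other tissues for either receptor. The share over all protein-coding starts at 10 kb is not given here, so the check is a coarse one.

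The DNA between the starts is printed for 8 pairs, which are textbook bidirectional promoters with a RARα peak or the pairs with the highest values over all members or within the lipid genes. Each sequence runs 5′ to 3′ on the plus strand of NCBI37/mm9 from the base after the start of the minus-strand gene to the base before the start of the plus-strand gene. Capitals mark matches on either strand to the GC box GGGCGG, the CCAAT box, the NRF1-like motif GCGCATGC and the E-box CACGTG, the motifs found among those searched, and in Etfdh/4930579G24Rik a pair of NRF1-like matches overlaps.
Hadha/Hadhb, chr5:30481703-30481787, the alpha and beta subunits of the mitochondrial trifunctional protein of fatty acid oxidation: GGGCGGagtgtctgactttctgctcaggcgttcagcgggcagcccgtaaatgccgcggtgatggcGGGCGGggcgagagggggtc
Mmab/Mvk, chr5:114894069-114894277, an enzyme of cobalamin metabolism and mevalonate kinase of cholesterol synthesis: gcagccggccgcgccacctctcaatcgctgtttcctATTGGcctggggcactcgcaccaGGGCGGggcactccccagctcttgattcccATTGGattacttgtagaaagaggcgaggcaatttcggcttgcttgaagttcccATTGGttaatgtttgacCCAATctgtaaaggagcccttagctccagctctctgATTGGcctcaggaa
Mrps12/Sars2, chr7:29526840-29527009, a mitochondrial ribosomal protein and the mitochondrial seryl-tRNA synthetase: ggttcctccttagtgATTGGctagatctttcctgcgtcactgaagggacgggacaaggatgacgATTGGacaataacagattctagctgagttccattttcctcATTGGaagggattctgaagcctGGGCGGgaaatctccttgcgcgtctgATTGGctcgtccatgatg
1700052N19Rik/Rmnd1, chr10:5914075-5914152, with Rmnd1 a gene of mitochondrial translation: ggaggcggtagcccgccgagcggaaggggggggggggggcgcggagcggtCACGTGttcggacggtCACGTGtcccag
Crat/Ppp2r4, chr2:30271334-30271558, carnitine acetyltransferase and an activator of protein phosphatase 2A: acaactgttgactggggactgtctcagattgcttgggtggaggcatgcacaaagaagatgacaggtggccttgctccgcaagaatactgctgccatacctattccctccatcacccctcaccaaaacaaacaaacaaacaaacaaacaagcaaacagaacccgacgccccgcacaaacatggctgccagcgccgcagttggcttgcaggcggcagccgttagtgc
Etfdh/4930579G24Rik, chr3:79432786-79433000, with Etfdh the dehydrogenase that passes electrons from fatty acid oxidation to ubiquinone: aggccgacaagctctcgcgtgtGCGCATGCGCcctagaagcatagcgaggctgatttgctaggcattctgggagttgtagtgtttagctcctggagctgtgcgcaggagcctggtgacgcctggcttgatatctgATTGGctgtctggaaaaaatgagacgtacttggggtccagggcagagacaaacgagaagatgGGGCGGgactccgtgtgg
Acot8/Zswim3, chr2:164630383-164630597, with Acot8 a peroxisomal acyl-CoA thioesterase: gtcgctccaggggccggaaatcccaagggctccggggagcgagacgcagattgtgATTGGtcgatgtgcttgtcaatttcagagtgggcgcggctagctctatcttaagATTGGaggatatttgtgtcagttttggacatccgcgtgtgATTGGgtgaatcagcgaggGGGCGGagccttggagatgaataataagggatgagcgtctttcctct
Srsf7/Ttc39d, chr17:80606630-80606799, with Srsf7 a splicing factor: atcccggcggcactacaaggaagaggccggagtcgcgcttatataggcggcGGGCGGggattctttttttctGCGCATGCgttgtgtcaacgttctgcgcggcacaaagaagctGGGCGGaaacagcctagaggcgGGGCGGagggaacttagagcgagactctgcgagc
None of these spans held a direct repeat of the receptor hexamer, and the span of Crat/Ppp2r4 held no searched motif.

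A RARα peak was present at 671 of the 808 pairs (83.0%, 80.3 to 85.5%), compared to 33.9% of the single promoters (33.3 to 34.6%). The share over all protein-coding starts was 38.6%. The pairs with a RARα peak had scores from 21 to 244 with a median of 48, and the single promoters with a peak had a median of 46. Thus the pairs were called more often, whereas the scores of the called promoters were alike. A further 72 pairs had only peaks with scores of 20 or less, so that 743 pairs (92.0%) had a listed peak of any score, compared to 49.6% of all starts, and 65 pairs had none.

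RXRα regions were present at 260 pairs (32.2%, 29.0 to 35.5%), compared to 16.6% of the single promoters (16.1 to 17.2%) and 18.3% of all starts. The RXRα enrichment of the pairs ran from 0 to 24.8 with a median of 3.33, compared to a median of 1.29 at single promoters. Input was also higher at the pairs, with a median of 1.42 reads per bin against 0.688, and the part of input in these differences was not tested. Of the pairs with an RXRα region, 245 also had a RARα peak, and 5 had no listed RARα peak of any score.

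The receptors were co-localized, which means that a RARα peak overlapped an RXRα region by at least 25% of the narrower interval, at 228 pairs (28.2%, 25.2 to 31.4%). The share was 12.5% at single promoters and 14.0% over all starts. Counted per pair with a RARα peak, 34.0% were co-localized (30.5 to 37.6%), close to the 36.7% of single promoters with a RARα peak (35.6 to 37.9%). Counted from RXRα, 87.7% of the pairs with an RXRα region were co-localized (83.1 to 91.1%), compared to 73.9% of such single promoters (72.4 to 75.4%). The higher count of co-localized pairs thus went with the higher count of RARα peaks, and not with a higher share of RXRα among promoters that RARα occupied.

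Among pairs with a RARα peak, RXRα regions were more frequent at higher RARα scores. They were present at 97 of 357 pairs with scores of 21 to 50 (27.2%, 22.8 to 32.01%), at 121 of 270 with scores of 51 to 100 (44.8%, 39.0 to 50.8%) and at 27 of 44 with scores above 100 (61.4%, 46.6 to 74.3%). The same classes of single promoters gave 34.4% (32.9 to 36.0%), 45.3% (43.3 to 47.3%) and 52.9% (48.9 to 56.9%). The share of pairs lay below that of single promoters in the lowest class, and the intervals overlapped in the other classes. As a description across the 671 pairs, the Spearman correlation of RARα score and RXRα enrichment was only 0.12. The plot of score against ratio shows that the highest values of the receptors fell at different pairs.

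**Figure D1:**
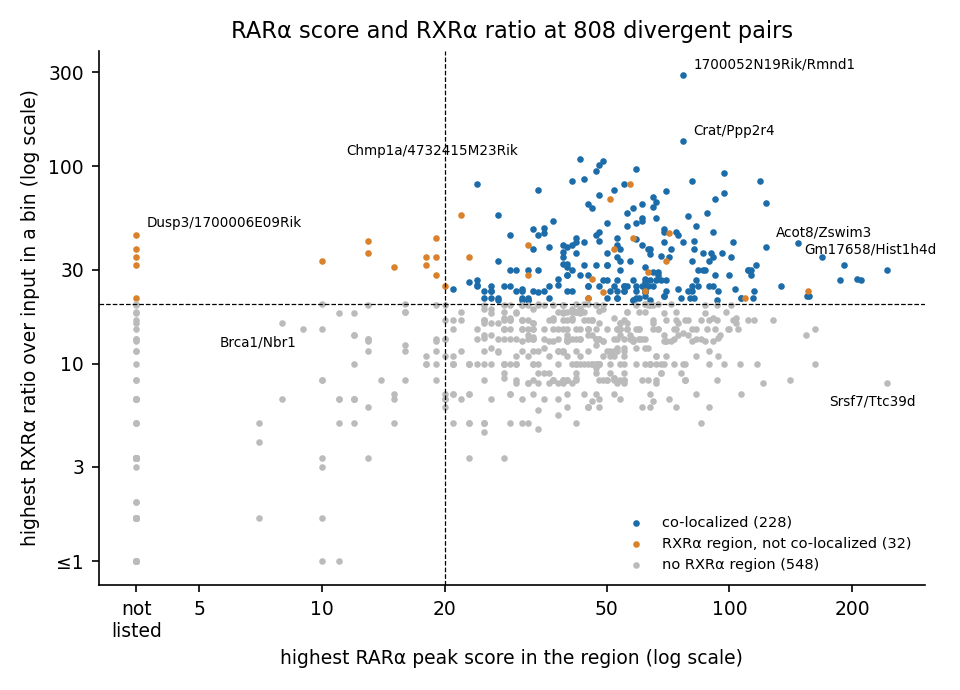
Each point is 1 of the 808 pairs, with the highest RARα peak score in its region on the x axis and the highest ratio of RXRα to input in a 32 bp bin on the y axis, both on log scales and without units, and pairs without a listed RARα peak at the far left. Dashed lines mark a score of 20 and a ratio of 20; the 228 co-localized pairs fill the upper right, and 548 pairs have no RXRα region.

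Divergent promoters differ from single promoters in base composition. The ratio of observed to expected CpG in a 1 kb window had a median of 0.776 at the pairs and 0.482 at single promoters, and 689 pairs had a ratio of 0.6 or more. The shares were therefore set side by side within classes of this ratio. Above 0.8, a RARα peak was present at 310 of 346 pairs (89.6%, 85.9 to 92.4%) and at 72.8% of single promoters (71.3 to 74.3%). From 0.6 to 0.8 it was present at 300 of 343 pairs (87.5%, 83.5 to 90.6%) and at 60.5% of single promoters (59.0 to 61.9%). From 0.4 to 0.6 the shares were 68.8% of 77 pairs (57.8 to 78.1%) and 28.9% (27.3 to 30.6%), and below 0.4 they were 19.05% of 42 pairs (9.98 to 33.3%) and 5.94% (5.47 to 6.46%). The share of pairs was above that of single promoters in each class, with intervals that did not overlap.

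For RXRα the contrast within classes was smaller. Above 0.8, RXRα regions were present at 33.8% of the pairs (29.0 to 39.0%) and 29.5% of the single promoters (28.0 to 31.0%), and these intervals overlapped. From 0.6 to 0.8 the shares were 32.1% (27.4 to 37.2%) and 25.7% (24.4 to 27.0%). In the CpG-poor classes they were 32.5% against 15.8% from 0.4 to 0.6, and 19.05% against 6.98% below 0.4. The share of pairs with an RXRα region was nearly the same in the 3 classes from 0.4 upwards. The single promoters were then weighted to the CpG classes of the pairs in windows of equal length. This adjustment was chosen once the data had been seen. It gave the pairs 1.37 times the RARα share and 1.22 times the RXRα share of single promoters, instead of 2.45 and 1.93 times. These windows still held both starts of a pair.

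**Figure D2:**
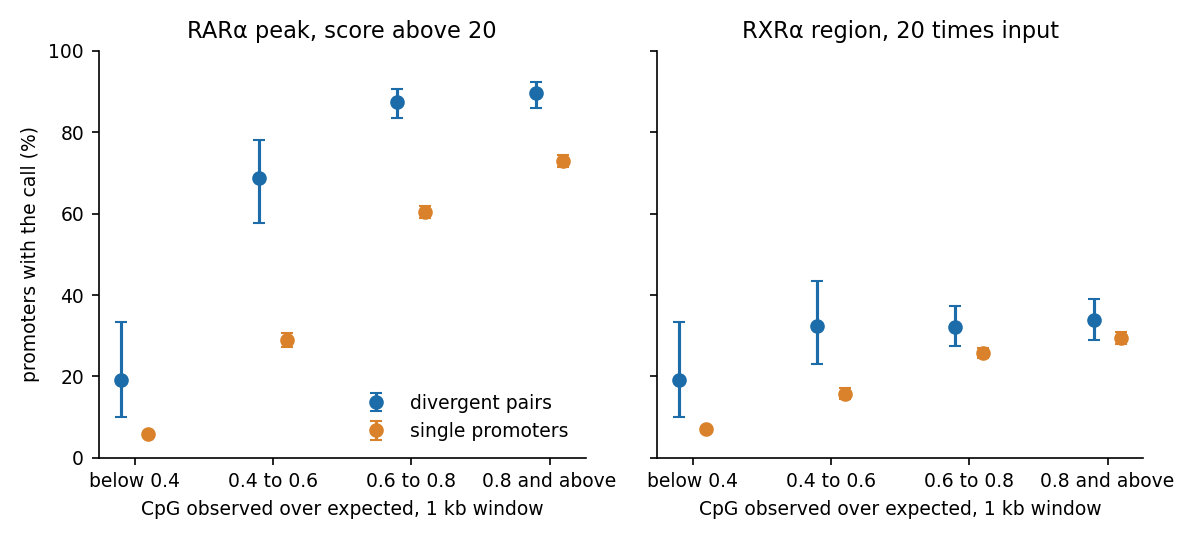
Share of promoters in percent with a RARα peak (left) and an RXRα region (right) by class of observed over expected CpG in a 1 kb window, for divergent pairs and single promoters, with 95% Wilson intervals that cover counting error only. The RARα share of the pairs lies above that of single promoters in every class, whereas the RXRα intervals overlap in the class of 0.8 and above.

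Other head-to-head arrangements were set beside the pairs. Where the annotated starts of the genes overlapped by up to 1 kb, so that both transcripts cover the same DNA, 320 of 419 pairs had a RARα peak (76.4%, 72.1 to 80.2%) and 161 had an RXRα region (38.4%, 33.9 to 43.2%). Single promoters with the start of a long non-coding gene on the opposite strand within 1 kb upstream had a RARα peak in 60.8% of 434 cases (56.2 to 65.3%) and an RXRα region in 29.3% (25.2 to 33.7%). With a CpG ratio of 0.6 or more, these single promoters with a non-coding partner had RXRα regions in 33.6% of 339 cases (28.8 to 38.8%), compared to 32.9% of the pairs (29.5 to 36.5%) and 27.4% of all single promoters (26.4 to 28.3%). For RARα the corresponding shares were 71.7% (66.7 to 76.2%), 88.5% (85.9 to 90.7%) and 65.9% (64.9 to 66.9%). The pairs of protein-coding genes thus stood highest for RARα, whereas for RXRα they were level with promoters that had a non-coding partner.

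Between classes of distance, RXRα shares differed little, while the RARα share was lowest for pairs between 500 and 1000 bp apart. The median CpG ratio was also lowest in that class, with 0.683 against 0.767 to 0.785 in the closer classes. The parts of distance and CpG in the RARα share were not separated. RARα peaks were present at 86.6% of 298 pairs at most 100 bp apart (82.2 to 89.99%), and at 82.6% of the next 224 pairs up to 200 bp, 85.2% of 115 up to 300 bp, 79.5% of 88 up to 500 bp and 72.3% of 83 up to 1000 bp (61.8 to 80.8%). RXRα regions were present at 30.2%, 31.2%, 32.2%, 37.5% and 36.1% of these pairs, with overlapping intervals, although longer spans give more room for a region. Pairs between 500 and 1000 bp apart were also measured in fixed 1 kb windows around each start, which hold only 1 start of the pair. Of these starts, 57.2% carried a RARα peak (49.6 to 64.5%) and 30.7% an RXRα region (24.2 to 38.1%). The shares of single promoters were 33.9% and 16.6%, and 65.9% and 27.4% at a CpG ratio of 0.6 or more. Just beyond the limit, the starts of the 120 pairs at 1 to 2 kb had shares of 43.8% (37.6 to 50.2%) and 15.9% (11.7 to 21.1%).

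Most RARα summits lay just inside a gene, where most of each region also lies. The strongest summit was within the minus-strand gene at 267 pairs, within the plus-strand gene at 276 pairs and between the starts at 128 pairs (19.1%, 16.3 to 22.2%). The span between the starts made up 14.8% of the region on average. With all distances pooled, the share between the starts was thus not below its share of the length, but this differed with distance. For pairs at most 100 bp apart, 13.6% of the summits lay between the starts, which made up 5.23% of the region. For the next pairs up to 200 bp the values were 20.5% and 12.5%. In the wider classes the share of summits lay below that of the length. It was 18.4% against 19.9% up to 300 bp, 20% against 27.0% up to 500 bp and 38.3% against 40.4% up to 1000 bp. The summits inside a gene lay 66 bp past its start at the median, with quartiles of 39 and 107 bp. By annotation, 424 of the 671 summits were in the non-coding part of an exon, 84 in a coding exon and 35 in an intron. Nonetheless the peaks themselves were broad, with a median width of 610 bp, and the strongest peak covered both starts at 366 pairs (54.5%) and at least 1 start at 622 pairs.

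RXRα maxima, the bins with the highest ratio over input, lay between the starts more often than RARα summits did. Of the 260 pairs with an RXRα region, 96 had the maximum between the starts (36.9%, 31.3 to 42.9%), where the span made up 16.1% of the region, and 91 and 73 had it in the minus-strand and plus-strand gene. Of these maxima, 104 were in the non-coding part of an exon, 18 in a coding exon and 42 in an intron. At the 245 pairs with both receptors, the RARα summit and the RXRα maximum lay 151 bp apart at the median, with quartiles of 82 and 315 bp, which is about the length of 1 extended read. They lay in the same gene at 74 pairs and in different genes at 61 pairs, and at 56 pairs the RARα summit was in a gene and the RXRα maximum between the starts. The RXRα maximum was nearer to the midpoint than the RARα summit at 125 of the 245 pairs (51.02%, 44.8 to 57.2%), so that neither receptor lay closer to the middle more often.

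**Figure D3:**
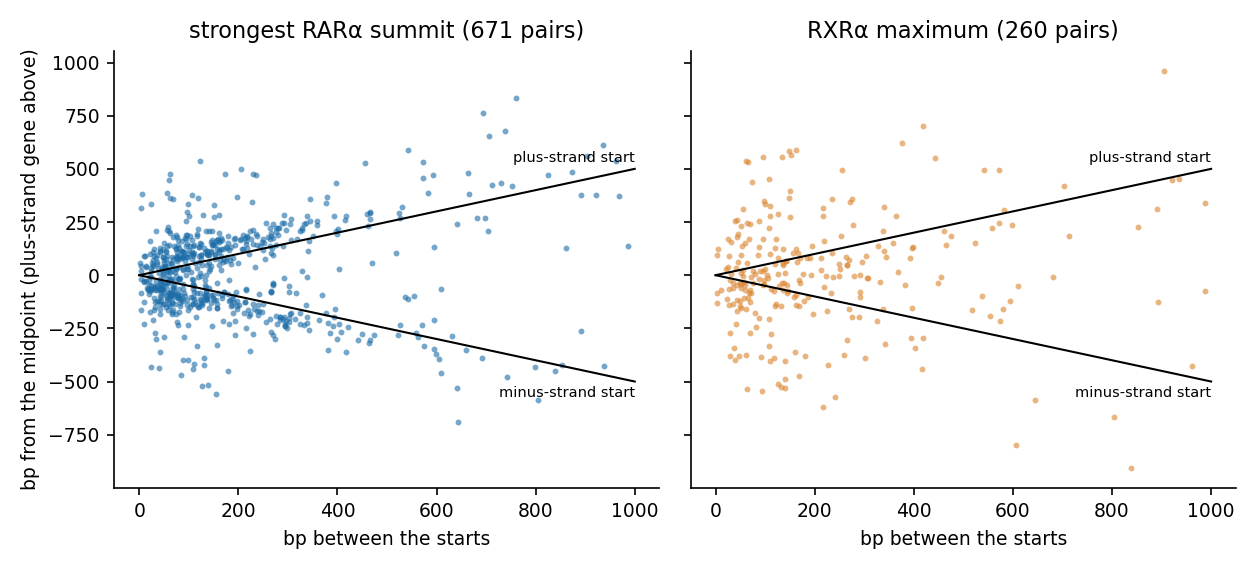
Position of the strongest RARα summit (left, 671 pairs) and of the RXRα maximum (right, 260 pairs) in bp from the midpoint of each pair against the bp between its starts, with black lines at both starts. RARα summits gather along and just outside the lines, and 96 of the 260 RXRα maxima lie between them against 128 of the 671 RARα summits.

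The same displacement was seen when all starts were aligned. At the 1599 starts of the pairs, RARα summits were most frequent 50 to 100 bp downstream, with 16.8 summits per 100 starts in that step of 50 bp, and a plateau of 7.50 to 8.88 summits per step covered the 250 bp upstream, where CpG-rich single starts fell steadily from 7.64 to 3.597. Within 500 bp, there were 60.3 summits per 100 starts upstream and 48.7 downstream at the pairs, compared to 16.6 and 25.04 at single starts. At the pairs, the upstream side includes the partner gene and its summits, and a summit near both starts was counted for each. The upstream numbers of the pairs are therefore not a count of additional summits. Single starts with a CpG ratio of 0.6 or more had 34.5 upstream and 48.0 downstream, so the downstream number was level with that of the pairs and the upstream number was lower. The mean RXRα signal was highest 64 bp upstream of the start in both classes, with 11.2 reads per bin over 2.04 of input at the pairs and 6.21 over 1.21 at single starts. The ratio at that position was 5.48 at the pairs, 5.13 at single starts and 5.32 at CpG-rich single starts. The highest ratio at any position was 5.49 at the pairs, 5.25 at single starts and 5.51 at CpG-rich single starts.

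**Figure D4:**
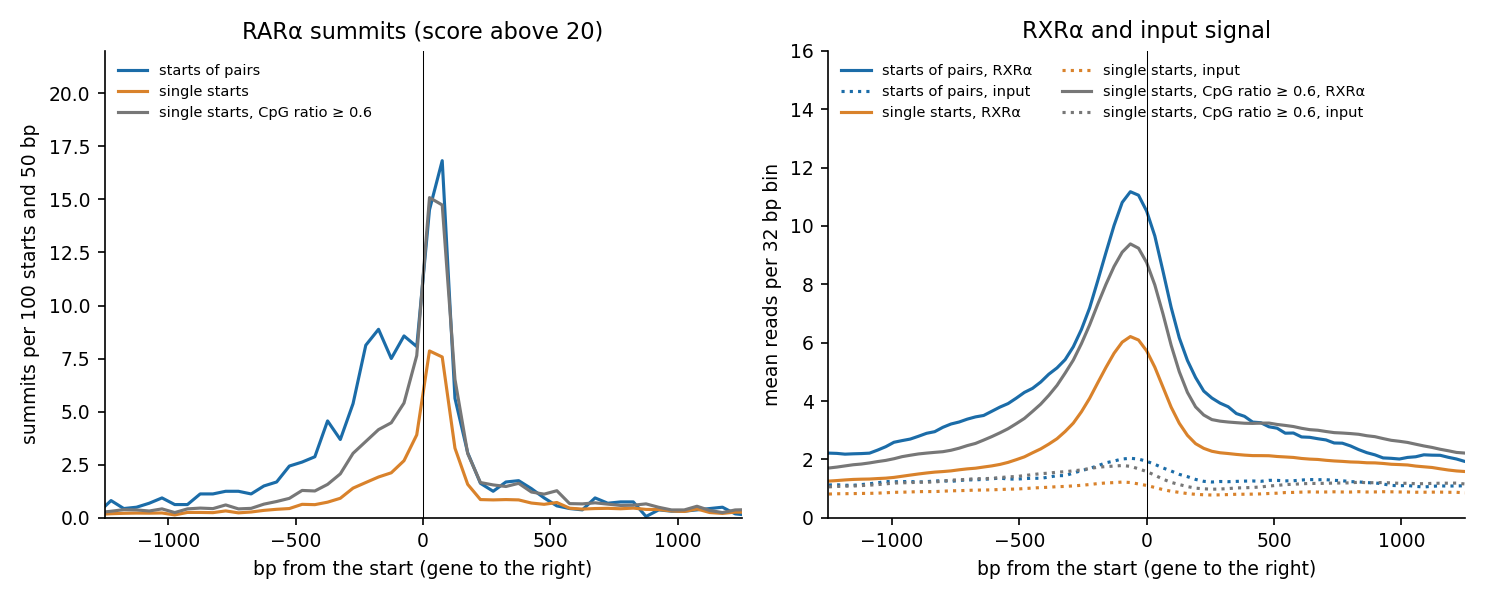
RARα summits with scores above 20 per 100 starts in steps of 50 bp (left) and mean RXRα (solid) and input (dotted) reads per 32 bp bin (right), against bp from the start with the gene to the right; bins were capped at 100 reads. Starts of pairs reach 16.8 summits per 100 downstream and show a plateau upstream, where summits of the partner gene are also counted. Their RXRα signal peaks 64 bp upstream at 11.2 reads.

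More than 1 RARα peak was listed at 250 pairs (30.9% of all pairs), compared to 7.22% of all single promoters. Counted among promoters with a peak, these were 250 of 671 pairs and 1418 of 6667 single promoters, whose regions are shorter. Summits were present in both genes of a pair at 177 of the 671 pairs with a peak (26.4%, 23.2 to 29.8%), in 1 gene at 395 and only between the starts at 99. At 226 of the 250 pairs with several peaks, however, neighbouring peaks were exactly 10 bp apart in the list. When such abutting peaks were joined, 639 pairs had 1 peak and only 20 had 2. Peaks per single promoter were not recounted in this way. Separated RARα peaks were thus rare at the pairs, and the number of listed peaks is not a count of separate sites.

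Short sequence motifs were counted on both strands in 1 kb windows, and a match is a description of the sequence and not a binding site. The ETS core CCGGAAG was present at 336 pairs (41.6%, 38.2 to 45.0%) and 16.5% of single promoters. With CpG ratios of 0.6 or more, the shares were 44.7% (41.0 to 48.4%) and 27.8% (26.8 to 28.8%). The YY1 motif AAGATGGC was also more frequent at CpG-rich pairs than at CpG-rich single promoters, with 15.4% (12.9 to 18.3%) against 9.51% (8.89 to 10.2%), and TATAAA was less frequent, with 13.2% (10.9 to 15.9%) against 19.003% (18.2 to 19.9%). The NRF1-like motif GCGCATGC had 10.9% (8.77 to 13.4%) and 8.42% (7.84 to 9.05%), the GC box GGGCGG had 91.9% and 92.4%, and the E-box CACGTG had 23.1% and 22.3%, each with overlapping intervals. The CCAAT box was present at 68.4% of CpG-rich pairs (64.8 to 71.7%) and 63.4% of CpG-rich single promoters (62.3 to 64.4%).

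**Figure D5:**
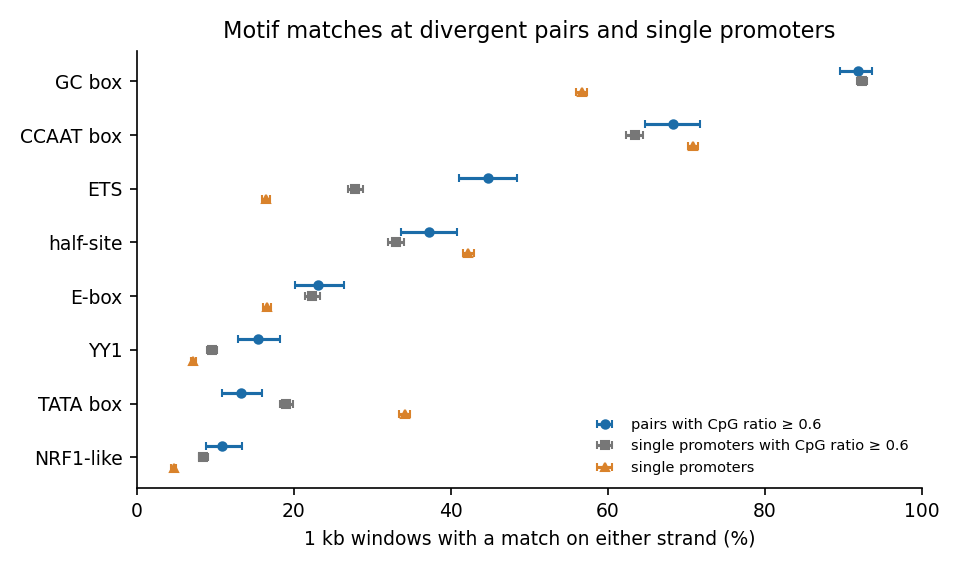
Percent of 1 kb windows with at least 1 match on either strand to 8 motifs, at pairs and single promoters with a CpG ratio of 0.6 or more and at all single promoters, with 95% Wilson intervals that cover counting error only. ETS and YY1 matches are more frequent and TATA matches less frequent at the pairs than at CpG-rich single promoters.

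At the pairs, the ETS motif was more frequent where RARα was present and equally frequent with and without RXRα. It was present at 45.3% of the pairs with a RARα peak (41.6 to 49.1%) and 23.4% of the 137 pairs without one (17.1 to 31.1%). At CpG-rich pairs, a RARα peak was present in 91.9% of those with an ETS match (88.3 to 94.4%) and 85.8% of those without (82.0 to 89.0%), and these intervals overlapped slightly. At CpG-rich single promoters the corresponding shares were 80.6% (79.0 to 82.2%) and 60.2% (59.0 to 61.5%). RXRα regions were present at 33.1% of the CpG-rich pairs with an ETS match and 32.8% of those without. YY1 matches were present at 16.2% of the pairs with a RARα peak (13.6 to 19.2%) and 5.84% of those without (2.99 to 11.1%).

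Direct repeats of the receptor hexamer were rare at the pairs, and inverted and everted repeats were not searched. A single copy of AGGTCA was present at 315 pairs (39.0%, 35.7 to 42.4%), compared to 42.2% of single promoters. Among promoters with a CpG ratio of 0.6 or more the order was the reverse, with 37.2% of pairs (33.6 to 40.8%) and 33.0% of single promoters (32.03 to 34.1%). It was present at 44.6% of the pairs with an RXRα region (38.7 to 50.7%) against 36.3% of those without (32.4 to 40.4%). For RARα the order was opposite, with 37.3% of the pairs with a peak (33.7 to 41.0%) against 47.4% of those without (39.3 to 55.8%), and both comparisons had overlapping intervals. Direct repeats were searched with 1 to 5 bases between the copies, allowing A or G as the first and G or T as the third base of each hexamer. The repeat with 1 base (DR1), an element that RXRα binds with PPARα, was present at 9 pairs (1.11%, 0.587 to 2.10%) and 0.560% of single promoters (0.465 to 0.674%). It was present at 5 of the 671 pairs with a RARα peak (0.745%, 0.319 to 1.73%) and at 4 of the 137 without (2.92%, 1.14 to 7.27%). The repeat with 2 bases was present at 2 pairs, and those with 3, 4 and 5 bases at 0 of 808 pairs (upper bound 0.473%), compared to 0.193%, 0.244% and 0.300% of single promoters. The 9 pairs hold 8 different DR1 elements, since Srp54a and Srp54b share one with the gene 2700097O09Rik.

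The DR1 elements of 3 pairs with an RXRα region are printed to show the repeat beside the position of the signal. Of the 260 pairs with an RXRα region only 4 held a DR1, and 5 of the 9 pairs with a DR1 had no RXRα region. Copies of the hexamer are in capitals and the base between them in lower case, 5′ to 3′ on the strand given, on NCBI37/mm9.
Acot8/Zswim3, chr2:164630724-164630736, minus strand: GGGTCAgAGGTCA
A930005H10Rik/Dph5, chr3:115590925-115590937, minus strand: AGGTCAaGGGTCA
Tpcn1/Iqcd, chr5:121038459-121038471, minus strand: GGGTCAgGGGTCA
All 4 pairs with a DR1 element and an RXRα region were co-localized. The 3 printed ones had RARα scores of 41 at A930005H10Rik/Dph5 and above 100 at the other two, and highest RXRα ratios from 24.9 at Tpcn1/Iqcd to 84.6 at A930005H10Rik/Dph5. The RXRα maximum was 3 bp from the element at A930005H10Rik/Dph5, 15 bp at Tpcn1/Iqcd and 38 bp at Acot8/Zswim3, while the RARα summits were 84 to 130 bp away. Each of these elements lay inside a gene and not between the starts. The other 5 pairs had ratios of 11.6 to 15.999 and no RXRα region, and of these only Fam154b/Eftud1 had a RARα peak above 20, with a score of 33.

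Of 20 textbook bidirectional pairs, 6 met the rule, 10 had overlapping annotated starts, and the other 4 lay farther apart or on the same strand. Hadha/Hadhb, whose span is printed above, was the only one of the 6 with both receptors. It had a RARα peak of score 62 at chr5:30481751-30482220, with the summit 117 bp into Hadhb in the non-coding part of an exon, and 31 RXRα reads over 1 input read in its highest bin. Mmab/Mvk had a RARα score of 74, with the summit 82 bp into Mvk, and a highest RXRα ratio of 18.3 from 11 reads, below the threshold. Mrps12/Sars2 had a score of 61 and a ratio of 8.30 from 5 reads.

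The textbook pairs of DNA repair had low RARα scores. Atm/Npat, the kinase of the DNA damage response and a coactivator of histone genes, had a score of 31 and a ratio of 19.9, from 12 reads with no input read. Mcm4/Prkdc, a subunit of the replicative helicase and the DNA-dependent protein kinase, had a score of 25 and a ratio of 16.6. Brca1/Nbr1 had no RARα peak above 20, only one of score 8, with 16 RXRα reads over 1 input read. None of these 3 reached the median score of 48 or the RXRα threshold.

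Pairs with a lipid or fatty acid gene had the highest share of RXRα regions among the 8 gene lists, 61.1%. Of these 18 pairs, 17 carried a RARα peak, 11 an RXRα region and 10 were co-localized, compared to 83.0%, 32.2% and 28.2% of all pairs. Their median RXRα enrichment was 5.94 against 3.33. Spata17/Gpatch2 entered this list by its symbol alone and is no lipid gene, and without it 16, 10 and 9 of 17 pairs remained, with a median of 5.66. Single promoters of genes from the same list had RXRα regions in 39.7% of 300 cases, compared to 16.6% of all single promoters and to 44.0% for the single promoters of the mitochondrial list below. These counts describe the listed genes and were not tested. A pair could be in more than 1 list, as Mrpl41/Pnpla7 was in the lipid and the mitochondrial list.

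The highest RARα scores of the lipid pairs were at Acot8/Zswim3, followed by 115 at Nadsyn1/Dhcr7 and 100 at Aldh6a1/Lin52. Dhcr7 encodes the last enzyme of the Kandutsch-Russell branch of cholesterol synthesis, and its pair had no RXRα region, with 10 RXRα reads in the highest bin and an enrichment of 2.24. Aldh6a1, an enzyme of valine breakdown, had 17 reads and an enrichment of 6.66. The highest RXRα ratios were 97.0 at Etfdh/4930579G24Rik, from 97 reads over 1 input read with a RARα score of 59, and 86.3 at Rnf5/Agpat1, from 52 reads with a score of 44. Agpat1 makes phosphatidic acid, a precursor of triglycerides and phospholipids. Acad10/Brap, with an acyl-CoA dehydrogenase, followed with 68.03 and a score of 92, whereas the acyl-CoA dehydrogenase pairs Acad8/Thyn1 and Ikzf5/Acadsb had ratios of 8.30 and 9.96 and no RXRα region. The genes of this class thus differed among themselves. The pairs of cholesterol synthesis, Mmab/Mvk, Nadsyn1/Dhcr7 and Cetn2/Nsdhl, had RARα scores of 74, 115 and 40 with RXRα ratios of 18.3, 16.6 and 8.30, all below the threshold.

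Mitochondrial genes formed the largest list, with 48 pairs. RARα peaks were present at 46 of them (95.8%, against 83.0% of all pairs), RXRα regions at 18 (37.5%, against 32.2%) and both at the same place at 16, and the median enrichment was 4.12 against 3.33. Single promoters of this list had RXRα regions in 44.0% of 184 cases, so the pairs were not above them. Pairs with subunits of succinate dehydrogenase (complex II) were co-localized, of which Sdha/Ccdc127 had a score of 70 and a ratio of 74.7 from 45 reads, and Sdhd/Timm8b had 53 and 26.6. Of the NADH dehydrogenase (complex I) genes, Ndufa5/Asb15 had the highest ratio with 64.7 and a RARα score of 45, and Tatdn1/Ndufb9 had the highest score with 105 and a ratio of 15.0. Uqcrq/Gdf9, a complex III subunit beside an oocyte growth factor, had a score of 89 with the summit 28 bp into Uqcrq, and 20 RXRα reads with no input read between the starts. Mrpl49/Fau had the highest score of the list with 113, and Ptcd2/Mrps27 had a score of 51 and a ratio of 68.0 without co-localization.

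RARα peaks were present at 45 of 46 RNA processing pairs (97.8%) and 23 of 24 ribosome and translation pairs (95.8%), compared to 83.0% of all pairs. RXRα regions were present at 13 and 4 of them (28.3% and 16.7%), compared to 32.2% of all pairs and to 17.3% and 19.6% of the single promoters of these lists. The RXRα share of the RNA processing pairs was thus near that of all pairs. Srsf7/Ttc39d had a RARα score of 244, which it shared with Gm17658/Hist1h4d as the highest of all pairs, and 8 RXRα reads over 1 input read. Its peak ran over chr17:80606301-80607270 with the summit just inside the span printed above. Hnrnpa2b1/Cbx3, an RNA-binding protein and a heterochromatin protein, had a score of 162 and a ratio of 14.9 from 9 reads, and Hist2h2ac/Hist2h2be had a score of 162 with 10 reads over 1 input read. These were the 3 highest RARα scores without an RXRα region. Hnrnph3/Pbld2 and Bag4/Lsm1 had ratios of 28.0 and 61.4 with RARα scores of 92 and 58. Among the ribosomal protein genes, Med22/Rpl7a had a score of 111 and a ratio of 29.9, whereas Rpl36al/Mgat2, Rpl9/Lias and Rps27/Rab13 had scores of 97, 94 and 94 with ratios of 9.96, 13.5 and 11.0.

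DNA repair and replication genes were in 33 pairs, of which 27 had a RARα peak (81.8%, against 83.0% of all pairs) and 7 an RXRα region (21.2%, against 32.2%), all 7 co-localized. Their median RARα score was 38, compared to 48 over all pairs. Rad17/Taf9, with a RARα peak and no RXRα region, was counted more than once in this list, under separate gene entries. The highest scores were 103 at Tmem199/Poldip2, 85 at 2310061C15Rik/Cenpn and 81 at Polk/Col4a3bp. Cenpn and the other Cenp genes of this list encode centromere proteins and entered it by their symbols. Pxmp2/Pole, a peroxisomal membrane protein beside the catalytic subunit of a replicative polymerase, had the highest ratio with 41.5 and a score of 69. Rad9b/Vps29 followed with 32 reads over 1 input read and an enrichment of 11.4. Vesicle and protein transport genes were in 26 pairs, with RARα peaks at 24 (92.3%) and RXRα regions at 7 (26.9%), compared to 83.0% and 32.2% of all pairs. Ap3m1/Adk, an adaptor subunit beside adenosine kinase, led both measures with a score of 97 and a ratio of 92.9. Wdr16/Stx8 had the next ratio with 56.4, and Tmed7/Eif1a and Rps27/Rab13 the next scores with 92 and 94.

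Chaperone, proteasome and ubiquitin genes were in 38 pairs, with RARα peaks at 32 (84.2%), RXRα regions at 11 (28.9%) and co-localization at 10, near the shares of all pairs. Hspa14/Cdnf, a co-localized pair, was counted more than once here, under separate gene entries. Hsp90b1/BC030307, with the chaperone of the endoplasmic reticulum, had 3 RARα peaks with a highest score of 210 and 16 RXRα reads with no input read. Dnajb4/Fubp1 and Fbxo9/Ick had scores of 88 and 91 without an RXRα region, and Tbccd1/Dnajb11 had a score of 56 and a ratio of 49.8. Histone genes, which are arranged head to head in their clusters, were in 14 pairs, with RARα peaks at 9 (64.3%) and RXRα regions at 3 (21.4%), both below the 83.0% and 32.2% of all pairs. Both genes were histones at 13 of them. Scores ran from 31 at Hist1h2ak/Hist1h2bn to 244 at Gm17658/Hist1h4d. Hist1h2ac/Hist1h2bc had a score of 83 and Hist1h2ae/Hist1h2bg a ratio of 23.2. Histone genes have near-identical copies among which reads cannot be placed with certainty, so their values are uncertain.

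The highest RXRα ratios did not come with the highest RARα scores. At 1700052N19Rik/Rmnd1 the highest bin held 175 RXRα reads and no input read, which gives a ratio of 290.4 over the mean input, and the enrichment of 24.8 was the highest of the members. Its RXRα maximum was in an exon of 1700052N19Rik, on the other side of the printed span from the strongest RARα summit. That summit lay 102 bp into Rmnd1 with a score of 77. Of the 2 RARα peaks of this pair, 1 was co-localized with an RXRα region. Crat/Ppp2r4 had 81 reads with no input read, a ratio of 134.4, with the maximum in the first gene. Its strongest RARα summit, score 77, lay 56 bp into the second gene, and 2 of its 3 RARα peaks were co-localized. Chmp1a/4732415M23Rik had 109 reads over 1 input read and a score of 43. Cep57l1/Sesn1, with the stress-induced sestrin, had 61 reads with no input read. The RARα scores of these pairs were 43 to 77, against a median of 48 and an upper quartile of 66 over the pairs with a peak.

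By mean enrichment over the whole region, high co-localized pairs after 1700052N19Rik/Rmnd1 were Chmp1a/4732415M23Rik with 19.4, Erc1/3110021A11Rik with 18.3 and D0H4S114/Gm10549 with 16.9. At the other end, the high RARα scores of Hjurp/Trpm8 with 206 and Mphosph9/2810006K23Rik with 191 came with RXRα ratios of 26.8 and 31.5. Hjurp/Trpm8 had the highest input of all pairs, 8.39 reads per bin, with 107 RXRα reads over 4 input reads in its highest bin, and the part of this input in its values was not tested.

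RXRα without any listed RARα peak was found at 5 pairs. The highest ratios were 44.8 at Dusp3/1700006E09Rik from 27 reads, 38.2 at Hspa1a/Hspa1l from 23 reads and 34.9 at Mdh1b/Fastkd2 from 21 reads, each with no input read in that bin. Hspa1a encodes an inducible heat shock protein with a near-identical copy, so its reads cannot be placed with certainty. Of the 65 pairs without a listed RARα peak, 25 had a CpG ratio below 0.4. Their median RXRα enrichment was 0.813 with an input of 0.632 reads per bin, compared to 3.57 and 1.54 at the pairs with a RARα peak, so that RXRα and input were both lower at pairs without a listed RARα peak, and the part of input in this was not tested.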

How the data were processed

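Values describe 3 libraries of mouse liver. The authors deposited the RXRα and input libraries as a coverage signal, whole numbers of extended reads in 32 bp bins, which comes to 9.9999 M and 9.9993 M reads. For RARα, the authors deposited a peak list with a score per peak and a false discovery rate in percent, which was not used, and the depth behind it is unknown. Its strand column is not explained and was left aside. CASAVA 1.4, Bowtie and MACS are named in the submitters' processing notes. The study's methods name mm10 for alignment, while the file headers name mm9, whose coordinates were used throughout.

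The start of a protein-coding GENCODE M1 gene was its 5′ end. One pair on the mitochondrial chromosome was left out. RARα peaks with scores above 20, RXRα regions at 20 times input joined within 200 bp and an overlap of 25% follow the study's cut offs where it states them. Both tracks were scaled to the same total, and input was never taken below its mean. Wilson intervals at 95% give counting error only. No p-values were computed, because there was 1 library per antibody. Sequence came from NCBI37. The detection steps were tested on simulated data. Pairs, gene lists and motifs were chosen with earlier results of these data known. Named pairs were 20 textbook pairs, the 5 highest by RARα score, RXRα ratio and enrichment, the 3 highest of each receptor without the other, and the leading 3 and 2 of each gene list. Others named were the pairs with a DR1 element, the complex I and II genes, Spata17/Gpatch2, the Acad genes, Cetn2/Nsdhl and Hist1h2ak/Hist1h2bn, which were chosen after their values were seen. Some pairs that this rule names are not reported here. The software was pysam 0.24.0, scipy 1.17.1, matplotlib 3.10.9, pandas 2.3.3 and numpy 2.4.6 under Python 3.11.15.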

Additional observations from a re-analysis of the deposited data

How the results depend on the processing

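No paired analysis was possible because each antibody had 1 library. Of the values recomputed under other settings, none reversed its direction. The share of pairs with a RARα peak was 92.0% with no score threshold and 38.9% with scores above 50, and its ratio to single promoters was 2.05 and 2.62. The share with an RXRα region was 70.3% at 10 times input, 15.6% at 30 times and 63.9% with the mean input alone, a choice made after seeing the data. The ratio of RXRα shares was 1.73 at 30 times input and 2.24 with the mean input alone. Weighting single promoters to the CpG classes of the pairs, also chosen after seeing the data, gave ratios of 1.37 for RARα and 1.22 for RXRα. The co-localized share was 60.5% with RXRα at 10 times input and 15.7% with RARα scores above 50. The median RXRα enrichment was 3.53 in equal windows and 2.39 with a pseudocount of 1 in place of the input floor, and its ratio to single promoters was 2.74 and 1.82. The share of summits between the starts stayed within its interval under every setting tried. Shares of pairs also stayed within their intervals with starts at most 300 bp apart and without genes in more than 1 pair. The cause of these changes was not tested. The depth of 9.9999 M reads leaves single bins with few reads, so RXRα calls near the threshold rest on about 13 reads.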
